A study of Arabidopsis thaliana with 12 samples.

Results

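The 26S proteasome is the machine that degrades proteins marked with ubiquitin, and its subunit genes were followed here in Arabidopsis thaliana leaves that had received the immune signal molecule 2'cADPR or water. The genes were chosen by their AGI codes: 41 genes that encode subunits of the 20S core and the 19S regulatory particle, all 41 of which were among the 24228 genes of the deposited tables and among the 19652 genes with enough counts to be tested. They comprise 11 genes of the alpha ring (PA), 10 of the beta ring (PB), 9 of the ATPase ring (RPT) and 11 of the non-ATPase subunits (RPN). Another 15 subunit genes, most of them second copies of a subunit, were described apart from these 41.

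The core is a barrel of stacked rings: the alpha rings gate the entry and the beta rings carry the active sites, of which PBA cuts like a caspase, PBB like trypsin and PBE like chymotrypsin. The regulatory particle caps the barrel. Its RPT ATPases unfold the substrate, and its RPN subunits bind ubiquitin, remove it and hold the particle together. In Arabidopsis the transcription factors NAC53 and NAC78 are known to raise proteasome genes when protein degradation is impaired, and most subunits are encoded by a pair of gene copies.

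The samples were rosette leaves of wild type Col-0 and of a PAD4 knockout, called pad4, each given 2'cADPR or, in the samples titled mock, water, with 3 libraries in each of the 4 groups. The study asked what 2'cADPR, a cyclic ADP-ribose isomer made by TIR-domain proteins, does and whether it needs the EDS1-PAD4-ADR1 pathway, in which PAD4 is the partner of EDS1. The labels used here name no knockout allele, dose, time after treatment or plant age. Nor do they say that the replicates came from different plants, so every p-value here measures only how far these samples spread, which may be technical.

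Library totals ran from 35.8 to 44.4 M (1e6) counts, and each subunit gene had between 696 and 17829 counts in every library, so the counting error of a single value was small. Rank correlations across genes within a group lay between 0.9896 and 0.9929. PAD4 stood at 63.9 to 75 CPM (counts per 1e6, scaled by TMM) in wild type after water and 518 to 590 CPM after 2'cADPR, against 2.52 to 5.51 CPM in the 6 pad4 libraries. The 4 leaf markers RBCS1A, LHCB2.1, CA1 and RCA were abundant in every library, and the 3 flower and seed markers measured had fewer than 10 counts in each. The summed leaf markers were lower after 2'cADPR in wild type, at 10100 to 11300 CPM against 19000 to 24500 CPM after water, and stood at 19900 to 22800 CPM in pad4; 3 of the 4 were called lower in wild type. The 4 epidermis markers, 3 of them called lower, summed to 765 to 855 CPM after water and 314 to 399 CPM after 2'cADPR in wild type, and to 664 to 823 CPM in pad4. The 4 markers of dividing cells, 2 of them called lower, summed to 3.19 to 5.21 CPM and 1.77 to 2.03 CPM in wild type, and to 2.37 to 4.78 CPM in pad4. Of the 4 guard cell markers, 1 was called higher and 1 lower in wild type. They summed there to 42.6 to 52.1 CPM after water and 44.8 to 59.2 CPM after 2'cADPR, and to 51.9 to 59.9 CPM in pad4. Of the 4 vascular markers, 1 was called lower. They summed to 185 to 199 and 164 to 169 CPM in wild type, and to 164 to 184 CPM in pad4. Over all tested genes 34.6% were called lower in wild type. The part of these markers in the proteasome results was not tested. In whole leaves, a change in the number of cells of a type and a change in RNA per cell cannot be told apart.

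The windows before 4 of these genes are shown because they belong to the 2 subunits in which the share of a gene copy, in FPKM, moved by the most percentage points, the trypsin-like core subunit PBB and the ATPase RPT6. Each is the stretch of 150 bases that ends at the annotated gene start, 5′ to 3′ on the gene's own strand, from the RefSeq assembly TAIR10.1, and overlaps no annotated exon. Capitals mark TGGGC on either strand (GCCCA), the core of the element described for NAC53 and NAC78 targets, which is also part of the site II element TGGGCC or TGGGCT.
PBB1, chr3:10152308-10152457, plus strand: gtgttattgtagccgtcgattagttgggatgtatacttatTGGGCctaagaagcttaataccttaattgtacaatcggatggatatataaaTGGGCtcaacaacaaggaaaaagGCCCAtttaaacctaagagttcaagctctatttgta
PBB2, chr5:16250926-16251075, minus strand: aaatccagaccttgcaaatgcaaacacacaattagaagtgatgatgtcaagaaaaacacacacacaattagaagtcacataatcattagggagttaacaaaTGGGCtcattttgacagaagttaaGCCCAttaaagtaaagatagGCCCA
RPT6A, chr5:6751648-6751797, plus strand: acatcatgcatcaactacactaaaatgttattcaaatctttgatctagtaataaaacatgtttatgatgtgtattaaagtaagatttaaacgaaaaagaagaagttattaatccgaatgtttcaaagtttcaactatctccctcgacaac
RPT6B, chr5:6756483-6756632, plus strand: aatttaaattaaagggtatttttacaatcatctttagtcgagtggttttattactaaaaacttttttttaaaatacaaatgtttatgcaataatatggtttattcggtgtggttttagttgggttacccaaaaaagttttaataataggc

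Both PBB windows hold 3 copies of TGGGC and both RPT6 windows hold none. In the longer window of 300 bases before the gene start, 19 of the 41 subunit genes (46.3%) had TGGGC and 14 (34.1%) had 2 or more copies, against 26.7% and 15.3% of 22593 protein-coding genes of the table. Every one of these 19 windows also held the site II form, which 22.8% of all windows had, so the forms cannot be told apart here. By ring, 7 of 10 PB genes, 5 of 11 PA genes, 3 of 9 RPT genes and 4 of 11 RPN genes had the motif. The W-box letters TTGACC or TTGACT, bound by WRKY factors, were in 11 of 41 windows (26.8%) against 32.3% of all. These are matches of letters in a window, not binding sites. Of the 41 longer windows, 20 (48.8%) reach into annotated exons and 3 lie wholly in them, against 34.0% of all windows with any exon base; among windows free of exons, 10 of 21 members (47.6%) and 24.4% of all had TGGGC. The CCT chaperonin, another complex of many subunits, had TGGGC in 6 of 8 windows.

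In wild type leaves, all 41 subunit genes rose after 2'cADPR. Over all tested genes 34.6% were called higher, by edgeR's quasi-likelihood test with Benjamini-Hochberg adjustment and an adjusted p under 0.05. The members' rises ran from 1.32-fold to 2.69-fold with a median log2 change of 0.85, while the median over all tested genes was -0.01. Of the 41, 37 rose at least 1.5-fold, against 21.6% of all tested genes. The largest adjusted p among the 41 was 0.00015. In all 41 the 3 treated libraries lay above the 3 water libraries, as in 36.0% of all tested genes.

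The rises of the 41 genes lay close together. The SD of the 41 log2 changes was 0.25, against 1.36 over all tested genes, and 22.6% of tested genes had a change between the lowest and the highest member. Such closeness was not particular to the proteasome. In the complexes set beside it below, the SD was 0.22 for the COP9 signalosome and 0.16 for the CCT chaperonin. Nor did it hold for every subunit gene: over the 15 others, which include the rare copy RPN12B at -3.72, the SD was 1.29. A larger rise than the members' median was seen in 16.7% of tested genes. The 21 core genes had a median log2 change of 0.90 and the 20 regulatory genes one of 0.80. The medians were 0.82 for the PA genes, 0.94 for PB, 0.91 for RPT and 0.73 for RPN, and the ranges of all 4 classes overlapped. Each treated wild type library showed it: the median member stood 0.83 to 0.87 log2 units above the mean of the water libraries, with all 41 members above in each of the 3. The 41 genes together took 0.352% to 0.371% of a library's counts in wild type after water and 0.659% to 0.677% after 2'cADPR.

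**Figure D1:**
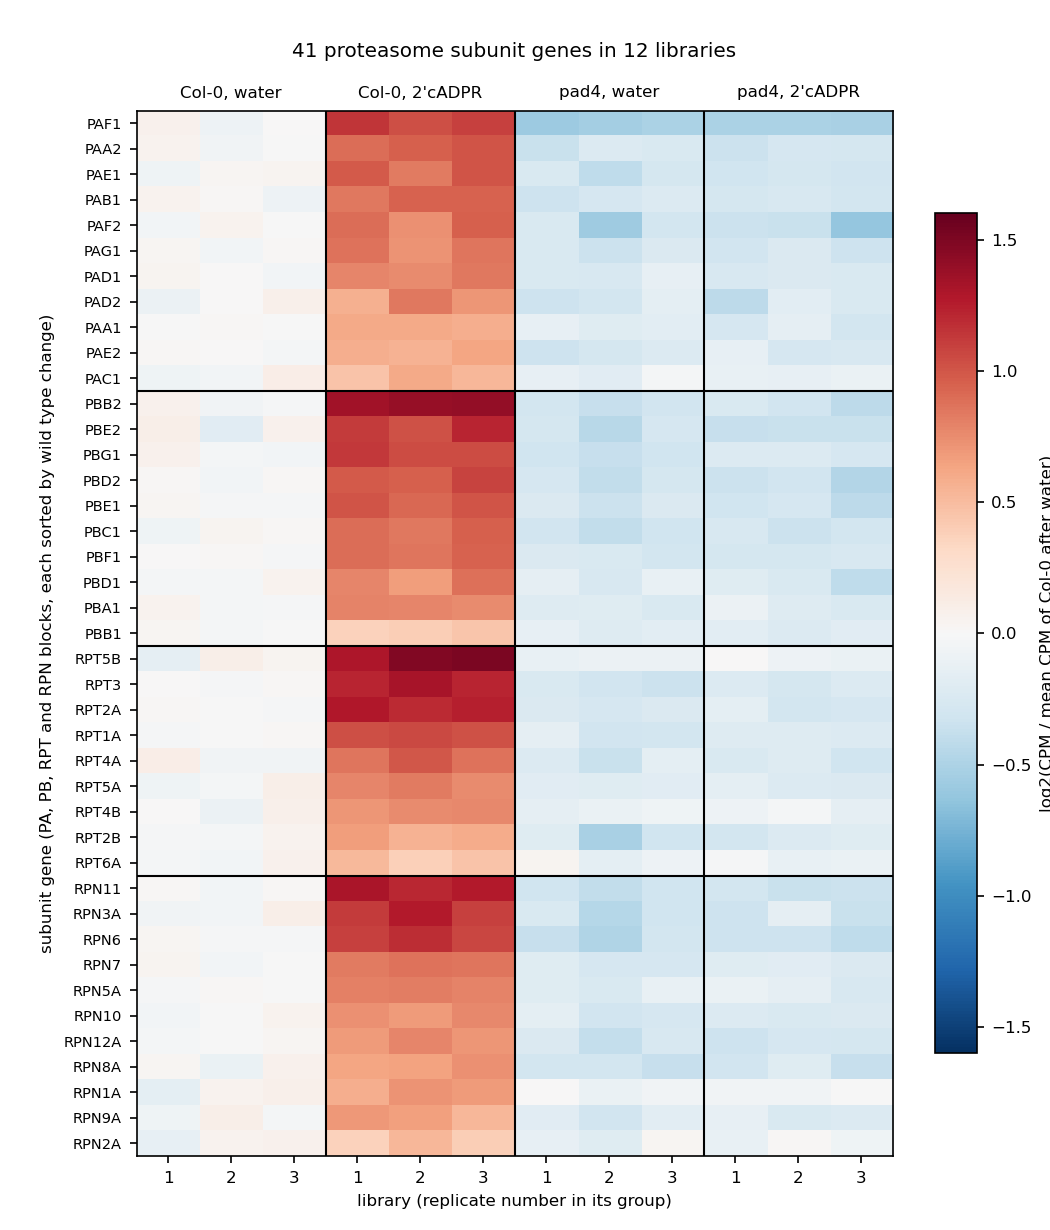
Heat map of the 41 subunit genes in the 12 libraries; colour is log2 of a library's CPM over the gene's mean CPM in Col-0 after water, and horizontal lines part the PA, PB, RPT and RPN genes. All 41 genes are red in all 3 treated wild type libraries, from 0.37 to 1.51, and most are pale blue in the 6 pad4 libraries.

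The genes of the catalytic subunits all rose. PBA1 (AT4G31300, chromosome 4 from 15188744 to 15191217, plus strand of TAIR10), the caspase-like subunit, stood at 104, 97.7 and 98.4 CPM in wild type after water and 174, 171 and 169 CPM after 2'cADPR. It rose 1.71-fold (log2 0.78 ± 0.0586 SE, adjusted p = 1.56e-08 by edgeR's quasi-likelihood test with Benjamini-Hochberg adjustment, as for all adjusted p-values below), and the groups did not overlap.

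The trypsin-like subunit has a copy that rose little and one that rose much. PBB1 (AT3G27430, chromosome 3 from 10152458 to 10155447, plus strand) stood at 85.4, 81.7 and 83.4 CPM in wild type after water and 108, 109.9 and 114 CPM after 2'cADPR. It had the smallest rise of all 41 members (1.32-fold, log2 0.40 ± 0.0536 SE, adjusted p = 7.40e-06), yet every treated library lay above every water library. PBB2 (AT5G40580, chromosome 5 from 16248286 to 16250925, minus strand) stood at 48.4, 44.4 and 45.6 CPM in wild type after water and 117, 122 and 123 CPM after 2'cADPR. It rose 2.61-fold (log2 1.39 ± 0.0633 SE, adjusted p = 1.06e-10), and its level per gene length passed that of PBB1 on average, as the shares of the copies below show. In the pad4 libraries PBB2 stood at 37.7, 35.9 and 37.2 CPM after water and 39.0, 37.4 and 34.4 CPM after 2'cADPR, and those groups overlapped.

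The chymotrypsin-like subunit rose in both its copies. PBE1 (AT1G13060, chromosome 1 from 4452190 to 4454900, plus strand) stood at 105, 102 and 102 CPM in wild type after water and 208, 195 and 207 CPM after 2'cADPR (1.97-fold, log2 0.98 ± 0.0610 SE, adjusted p = 1.96e-09). PBE2 (AT3G26340, chromosome 3 from 9650316 to 9652936, minus strand), the minor copy, stood at 23.2, 19.2 and 22.7 CPM in wild type after water and 47.2, 43.9 and 50.7 CPM after 2'cADPR (2.18-fold, log2 1.12 ± 0.0866 SE, adjusted p = 1.98e-08). The treated libraries lay above the water libraries for both. PBE2 is named in the reference only by its protein family, as are RPT4B, RPN2A, RPN3A, RPN7, RPN9A and RPN11 by family or another symbol.

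In the alpha ring, which forms the gate of the core, all 11 genes rose, from 1.44-fold to 2.13-fold. PAF1 had the largest rise of its ring and stood at 122, 111 and 118 CPM in wild type after water and 258, 238 and 249 CPM after 2'cADPR (log2 1.09 ± 0.0590 SE, adjusted p = 5.00e-10). Its treated libraries were all more than 100 CPM above its water libraries. PAC1 had the smallest rise of the ring (1.44-fold, log2 0.53 ± 0.0664 SE, adjusted p = 4.10e-06), at 99, 101 and 112 CPM in wild type after water and 143, 158 and 149.8 CPM after 2'cADPR, again with no overlap. The members nearest to the 1.5-fold line were PAC1 below it and PAE2 and PAA1 above it. PAE2 rose by log2 0.59 ± 0.0606 SE, adjusted p = 4.84e-07, and stood at 48.7, 48.5 and 47.2 CPM in wild type after water and 72.0, 70.6 and 74.4 CPM after 2'cADPR. PAA1 rose by log2 0.60 ± 0.0560 SE, adjusted p = 1.72e-07, and stood at 85.6, 87.0 and 85.7 CPM in wild type after water and 131, 131 and 129 CPM after 2'cADPR, and neither gene's groups overlapped.

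The ATPase ring held the largest and one of the smallest rises. RPT5B (AT1G09100, chromosome 1 from 2936528 to 2939363, minus strand) stood at 25.6, 30.1 and 29.2 CPM in wild type after water and 69.5, 78.7 and 80.5 CPM after 2'cADPR. Its rise was the largest of the 41 (2.69-fold, log2 1.43 ± 0.0768 SE, adjusted p = 4.53e-10), and the lowest treated library was far above the highest water library. RPT6A stood at 70.4, 69.7 and 75.2 CPM in wild type after water and 103, 93.8 and 98.7 CPM after 2'cADPR, a rise of 1.37-fold (log2 0.46 ± 0.0671 SE, adjusted p = 2.15e-05) in which the groups stood apart but the step was small. RPT3, which has no second copy among the genes listed, rose 2.39-fold (log2 1.26 ± 0.0586 SE, adjusted p = 1.27e-10), and RPT2A 2.36-fold (log2 1.24 ± 0.0598 SE, adjusted p = 1.70e-10); both are named after their values were seen.

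Among the 11 RPN genes of the 41, RPN11 (AT5G23540, chromosome 5 from 7937630 to 7939604, plus strand), the enzyme that cuts ubiquitin chains off the substrate, rose most. It stood at 98.8, 94.9 and 98.6 CPM in wild type after water and 240.1, 225 and 234 CPM after 2'cADPR (2.39-fold, log2 1.26 ± 0.0563 SE, adjusted p = 8.77e-11). All treated libraries exceeded 200 CPM and no water library reached 100 CPM. The lid subunit RPN6 stood at 123, 119 and 119 CPM in wild type after water and 255, 271 and 252 CPM after 2'cADPR (2.16-fold, log2 1.11 ± 0.0625 SE, adjusted p = 7.07e-10). RPN2A, of the large scaffold subunit RPN2, had the smallest rise among the 20 regulatory genes of the 41 and stood at 109.6, 125 and 125 CPM in wild type after water and 155, 174 and 158 CPM after 2'cADPR (1.35-fold, log2 0.44 ± 0.0782 SE, adjusted p = 0.00015). Its groups did not overlap. The ubiquitin receptor RPN10 rose 1.66-fold (log2 0.73 ± 0.0594 SE, adjusted p = 3.61e-08; named after its values were seen).

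**Figure D2:**
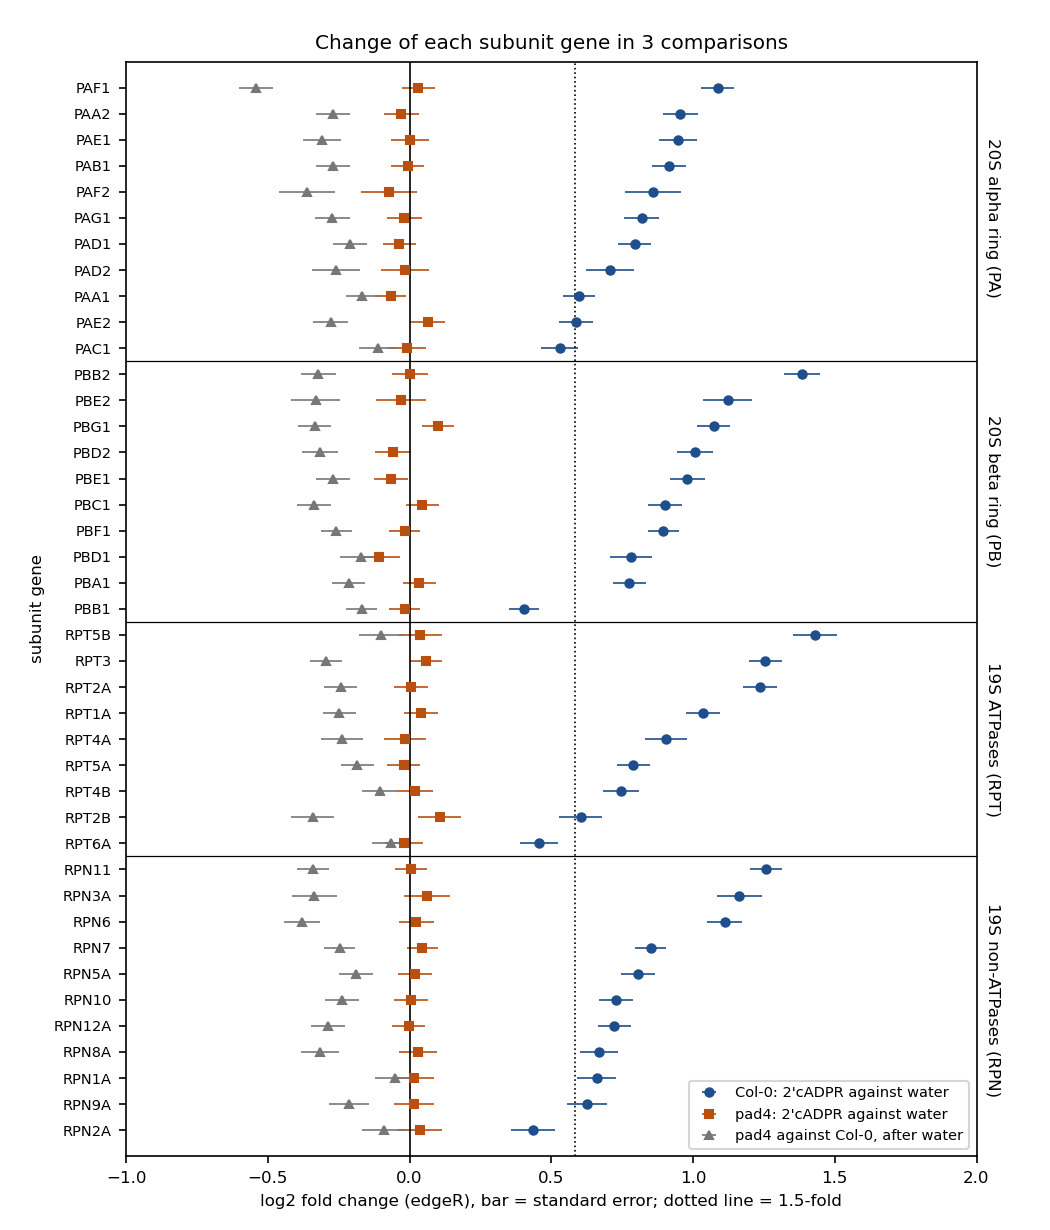
Log2 fold change of each subunit gene (edgeR; bars are standard errors) for 2'cADPR against water in Col-0 (circles), the same in pad4 (squares) and pad4 against Col-0 after water (triangles). Circles lie between 0.40 and 1.43, squares between -0.11 and 0.11, and triangles between -0.54 and -0.05.

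In pad4 leaves, no subunit gene was called after 2'cADPR. The log2 changes of the 41 members lay between -0.11 and 0.11 with a median of 0.01, and the median standard error was 0.061. By edgeR's quasi-likelihood test 0 of 41 passed, and DESeq2 and limma-voom also called 0. By the edgeR test 0 of 41 had an unadjusted p under 0.05, against 992 of all 19652 tested genes. Over all tested genes 1 of 19652 was called, or 0.00509%. The groups overlapped in 40 of 41 members. Over all tested genes, 5.58% had every treated pad4 library higher and 7.39% had every one lower. The other member, PBG1 of the beta ring, stood at 91.1, 88.3 and 91.5 CPM after water and 97.5, 98.1 and 94.9 CPM after 2'cADPR (log2 0.10 ± 0.0567 SE, adjusted p = 0.974). The members' share of counts was 0.307% to 0.320% in pad4 after water and 0.312% to 0.328% after 2'cADPR.

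The difference between the responses was itself tested as an interaction, pad4 response minus wild type response. All 41 subunit genes had a smaller response in pad4, against 28.2% of all tested genes called lower in this test. The median interaction was -0.86 on the log2 scale and the range -1.39 (RPT5B) to -0.40 (RPN2A). PBB2 had log2 -1.38 ± 0.0892 SE, adjusted p = 1.21e-08, RPN11 had log2 -1.25 ± 0.0791 SE, adjusted p = 1.01e-08 and RPT5B had log2 -1.39 ± 0.108 SE, adjusted p = 6.71e-08. RPT5B stood at 26.1, 26.6 and 26.5 CPM after water and 28.4, 26.7 and 26.2 CPM after 2'cADPR in pad4, and RPN11 at 78.3, 74.3 and 78.4 CPM after water and 79.2, 76.2 and 76.7 CPM after 2'cADPR, with overlapping groups in both. The smallest differences were in RPT6A (log2 -0.47 ± 0.0949 SE, adjusted p = 0.000562), PBB1 (log2 -0.42 ± 0.0759 SE, adjusted p = 0.000231) and RPN2A (log2 -0.40 ± 0.111 SE, adjusted p = 0.00613). RPN2A was not called with upper-quartile scaling (adjusted p = 0.0576), which left 40 of 41 called.

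After water alone, the subunit genes stood a little lower in pad4 than in wild type. Of the 41, 34 were called lower and none higher, against 17.5% and 11.7% of all tested genes, and none was lower by 1.5-fold, against 9.92% of all tested genes. The median log2 difference was -0.26, where the median over all tested genes was 0.00. The same water-treated wild type libraries enter the wild type response, so the comparisons are not independent. PAF1 differed most: it stood at 122, 111 and 118 CPM in wild type and 78.3, 80.4 and 82.2 CPM in pad4 (log2 -0.54 ± 0.0590 SE, adjusted p = 5.18e-06), with no overlap. RPN6 stood at 92.8, 86.3 and 97.7 CPM in pad4 (log2 -0.38 ± 0.0622 SE, adjusted p = 0.000286), below all the wild type libraries given above. PAF2 stood at 31.6, 33.9 and 32.4 CPM in wild type and 27.6, 21.9 and 26.5 CPM in pad4 (log2 -0.36 ± 0.0990 SE, adjusted p = 0.0122), but 65.1% of its exon bases overlap a gene on the opposite strand, and the labels used here do not state whether counting used the strand.

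The 7 members not called in this comparison were PAC1, PBD1, RPT4B, RPT5B, RPT6A, RPN1A and RPN2A, with log2 differences of -0.17 to -0.05. The wild type and pad4 libraries overlapped in 6 of these, all but PBD1; in the other 35 members all pad4 libraries were lower, as in 23.5% of all tested genes. The number called fell to 25 with library totals alone or upper-quartile factors, and lay between 24 and 34 when 1 library was left out.

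After 2'cADPR all 41 were called lower in pad4 than in wild type, 39 of them by at least 1.5-fold, against 36.8% and 26.5% of all tested genes. The median log2 difference was -1.11. PBB2 was 3.26-fold lower (adjusted p = 4.57e-12), PAF1 3.03-fold (adjusted p = 4.59e-12) and RPN11 3.01-fold (adjusted p = 2.84e-12). The treated pad4 libraries of PAF1 stood at 82.6, 82.2 and 81.3 CPM, far below the treated wild type libraries given above. The exceptions to 1.5-fold were RPT6A and RPN2A. Wild type and pad4 libraries did not overlap in any of the 41, where 38.3% of all tested genes had all pad4 libraries lower.

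Because most subunits have several gene copies, the copies were summed per subunit in FPKM, the deposited unit per gene length, over the 33 subunits. In wild type the summed level after 2'cADPR was 1.29 to 2.42 times that after water, with a median of 1.77, and in pad4 it was 0.951 to 1.09 times, with a median of 1.02. The levels of the subunits relative to each other stayed nearly as wide: the SD of log2 FPKM over the 33 subunits was 0.622 after water and 0.655 after 2'cADPR in wild type, and 0.620 and 0.618 in pad4. RPN3, a lid subunit, had the largest ratio, from 54.4 to 131 FPKM. RPN15, encoded by the DSS1 genes, had the smallest, from 92.3 to 119 FPKM, and 93.2% of the exon bases of DSS1-V overlap another gene. The ubiquitin receptor RPN13 was the lowest subunit in all 4 groups, at 13.9 FPKM after water and 24 FPKM after 2'cADPR in wild type.

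**Figure D3:**
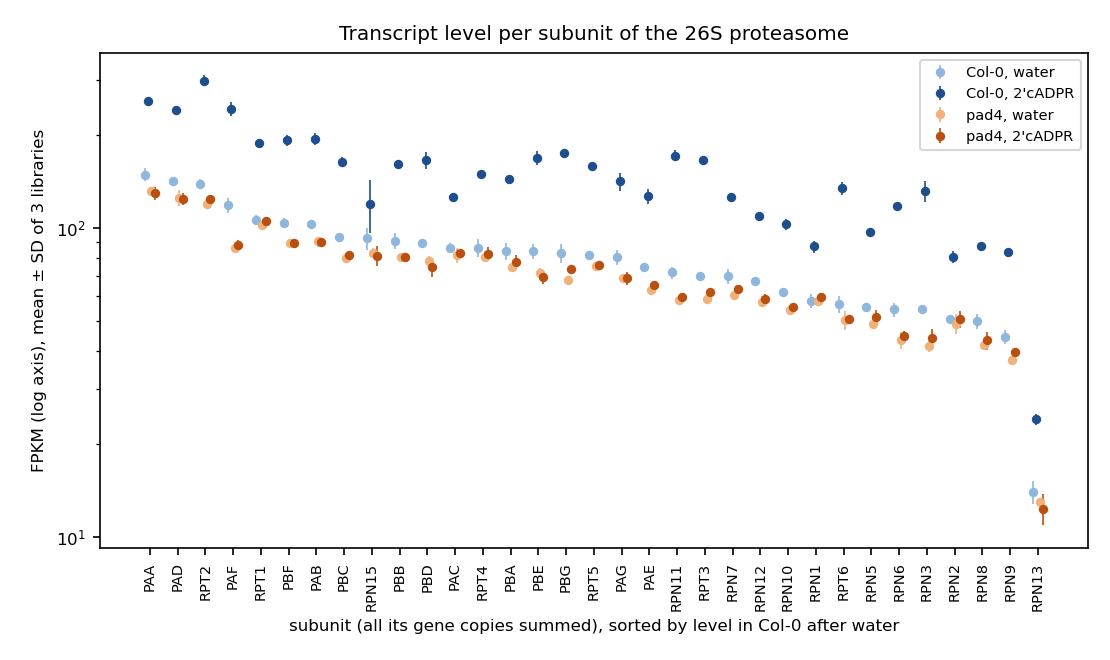
Summed FPKM of all gene copies of each of 33 subunits, on a log axis, as mean ± SD of 3 libraries in each of the 4 groups, sorted by the level in Col-0 after water. The points of treated Col-0 (dark blue) lie above the other groups at every subunit, from 24 to 299 FPKM, while RPN13 stays lowest.

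The copies of a subunit did not always move alike. There were 23 pairs of copies, of which both copies had a positive log2 change in wild type in 21, DSS1-I among them without a call. In 11 pairs the share of a copy in the pair's FPKM moved by at least 5 percentage points in wild type, while the largest move in pad4 over all 23 pairs was 1.92 points. With 3 libraries against 3 the exact two-sided permutation test cannot go below p = 0.10, which all 11 pairs reached (0.128 adjusted over the 23 pairs). Several pairs that moved by less reached the same p, so it does not set the 11 apart. PBC (4.6 points) and RPN3 (-4.6 points, both for the more abundant copy) were among them.

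RPT6 moved most. RPT6B (AT5G20000, chromosome 5 from 6756633 to 6759800, plus strand), which is not among the 41, stood at 47.5, 46.0 and 57.3 CPM in wild type after water and 167, 168 and 182 CPM after 2'cADPR (3.43-fold, log2 1.78 ± 0.0921 SE, adjusted p = 3.30e-10), while RPT6A rose 1.37-fold. Its share of the pair went from 48.6% ± 1.91 to 70.4% ± 1.37 (SD, n = 3), and was 43.0% ± 1.28 and 43.6% ± 1.33 in pad4. Of the 50-base stretches in RPT6A exons, 3.82% occur elsewhere in the genome, RPT6B included, the highest share of the 41. For RPT6B exons the share was 5.26%, so a part of the reads may not be assigned to 1 copy. For 39 of the 41 no such stretch occurred elsewhere.

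PBB1 made up 65.0% ± 0.517 of its pair after water and 48.5% ± 0.319 after 2'cADPR in wild type, against 67.4% ± 0.120 and 67.1% ± 1.39 in pad4. The copies of RPT1 went opposite ways, as did those of RPN12, described with the other subunit genes below. RPT1A rose 2.05-fold (log2 1.03 ± 0.0594 SE, adjusted p = 8.97e-10) and RPT1B fell 1.48-fold (log2 -0.57 ± 0.0761 SE, adjusted p = 8.45e-06). RPT1B stood at 80.9, 72.2 and 69.7 CPM in wild type after water and 51.1, 50.8 and 48.6 CPM after 2'cADPR, with no overlap, so that the share of RPT1A went from 80.5% to 92.6%. In RPT5 the share of RPT5A went from 77.7% to 69.1%, in RPN2 that of RPN2A from 66.1% to 56.0%, and in RPN8 that of RPN8A from 81.5% to 74.1%. In these 3 the more abundant copy lost share, whereas in RPT2 the more abundant RPT2A went from 75.7% to 82.9%. RPN9B went from 52.5% to 61.1% of its pair, PAA2 from 52.7% to 58.8%, DSS1-V from 53.2% to 58.8% and PAE2 from 53.8% to 47.7%. In 12 pairs, among them PBC, RPN3, PAB, PAD and RPN5, the shares moved by less than 5 points.

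**Figure D4:**
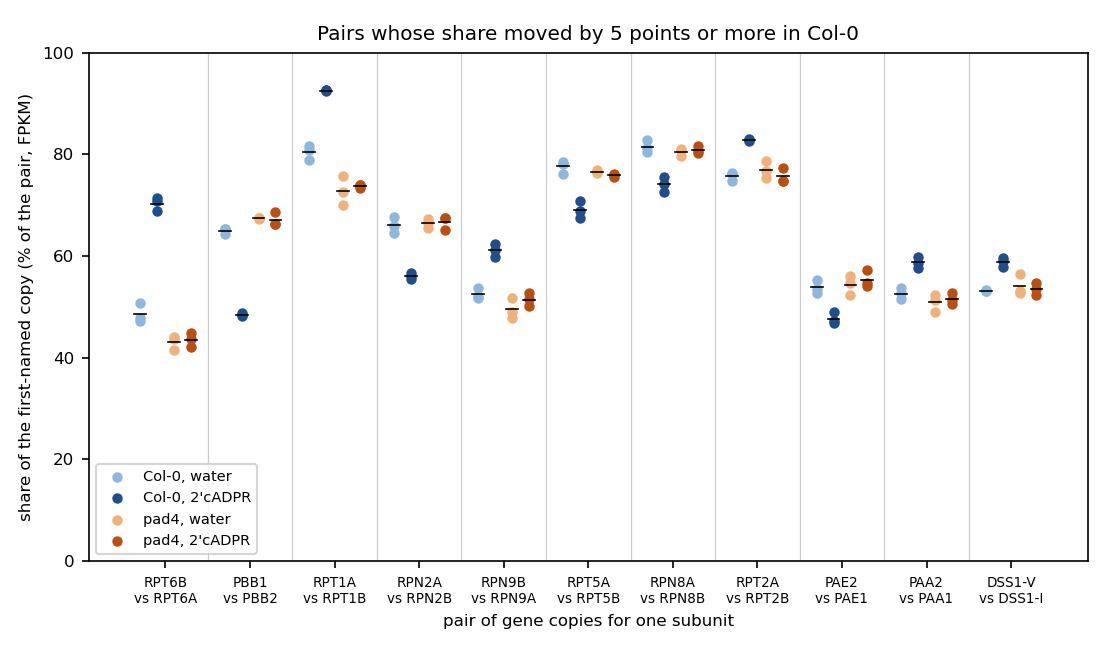
Share of the first-named copy in each pair's summed FPKM, in percent, for the 11 pairs that moved by at least 5 points in Col-0; dots are libraries and bars their means. The dark blue dots (treated Col-0) stand apart from the other 3 groups in each pair, for example at 70.4% against 43.0% to 48.6% (means) for RPT6B.

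Of the 15 other subunit genes, 12 rose in wild type and 2 fell; for this and the following lists, the share of all tested genes called higher was 34.6%. RPN3B rose 2.73-fold (log2 1.45 ± 0.0839 SE, adjusted p = 9.58e-10), from 36.8 ± 0.839 to 100.5 ± 11.9 CPM (SD, n = 3). RPN8B, a copy of the partner subunit of RPN11, rose 2.44-fold (log2 1.29 ± 0.0773 SE, adjusted p = 1.37e-09), from 14.4 ± 0.873 to 35.1 ± 1.55 CPM (SD, n = 3). The fallers were RPT1B, above, and RPN12B, a rare copy with 35 to 47 counts per library after water and 1 to 7 after 2'cADPR in wild type (adjusted p = 5.10e-06), and 57 to 85 in pad4. DSS1-I was not called (log2 0.19 ± 0.120 SE, adjusted p = 0.183).

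All 8 genes for assembly and regulation of the proteasome rose in wild type. NAC53 (AT3G10500) stood at 25.6, 22.7 and 20.4 CPM in wild type after water and 106, 112 and 97.3 CPM after 2'cADPR. It rose 4.60-fold (log2 2.20 ± 0.0893 SE, adjusted p = 4.35e-11), more than any of the 41 subunit genes. In pad4 it stood lower, at 13.2, 12.5 and 12.6 CPM after water and 12.2, 14.2 and 13.5 CPM after 2'cADPR, with no call between the treatments (log2 0.06 ± 0.0922 SE, adjusted p = 0.997). NAC78, a related factor, stood at 94.7, 84.5 and 86.8 CPM in wild type after water and 169, 182 and 161 CPM after 2'cADPR (1.93-fold, log2 0.95 ± 0.0646 SE, adjusted p = 5.37e-09). PA200, an alternative cap that activates the core without ubiquitin, stood at 152, 138 and 134 CPM in wild type after water and 490.2, 561 and 477 CPM after 2'cADPR (3.60-fold, log2 1.85 ± 0.0789 SE, adjusted p = 5.95e-11). After water PA200 was already 2.04-fold lower in pad4 (log2 -1.03 ± 0.0781 SE, adjusted p = 1.11e-07), and the 6 pad4 libraries lay between 67.4 and 79.6 CPM. Its window of 300 bases held no TGGGC and 3 W-box matches. The windows of NAC53 and NAC78 held none of these motifs, although 286 of the 300 bases before NAC53 lie in annotated exons. Over the whole list, 5 of 8 windows (62.5%) held TGGGC, against 26.7% of all windows.

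Among the 41, the presence of TGGGC did not sort the genes by their rise. The 22 without it had a median log2 change of 0.81 (range 0.44 to 1.43), the 5 with 1 copy 1.07 (0.53 to 1.16) and the 14 with more copies 0.83 (0.40 to 1.39). This grouping was not limited to windows free of exons. Among the 22, the windows of PBD2, RPN5A and RPN12A lie wholly in annotated exons. PBB1 and PBB2, whose windows are printed above, had the same number of copies and the smallest and the second largest rise.

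Of 18 genes that mark proteins with ubiquitin or carry them to the proteasome, 13 rose and 2 fell in wild type, with a median log2 change of 0.52. CDC48A, an ATPase that pulls ubiquitin-marked proteins out of complexes, stood at 653, 649.7 and 664 CPM in wild type after water and 1396, 1448 and 1357 CPM after 2'cADPR (2.14-fold, log2 1.10 ± 0.0646 SE, adjusted p = 1.17e-09). DSK2B, a shuttle for ubiquitin chains, rose 2.13-fold (log2 1.09 ± 0.0668 SE, adjusted p = 1.68e-09) and the polyubiquitin gene UBQ11 2.12-fold (log2 1.08 ± 0.0769 SE, adjusted p = 8.11e-09). RAD23C, another shuttle for ubiquitin chains and named after its values were seen, fell (log2 -0.61 ± 0.0742 SE, adjusted p = 2.90e-06). In pad4 none of the 18 was called.

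The COP9 signalosome, which is built from the same protein folds as the proteasome lid, had 9 of 10 genes called higher with a median log2 change of 0.53. The CCT chaperonin had 3 of 8 called higher with a median of 0.13, a share near the 34.6% of all tested genes. These are counts and medians beside those of the proteasome, whose 41 of 41 and 0.85 stand above; the difference between the complexes was not tested.

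**Figure D5:**
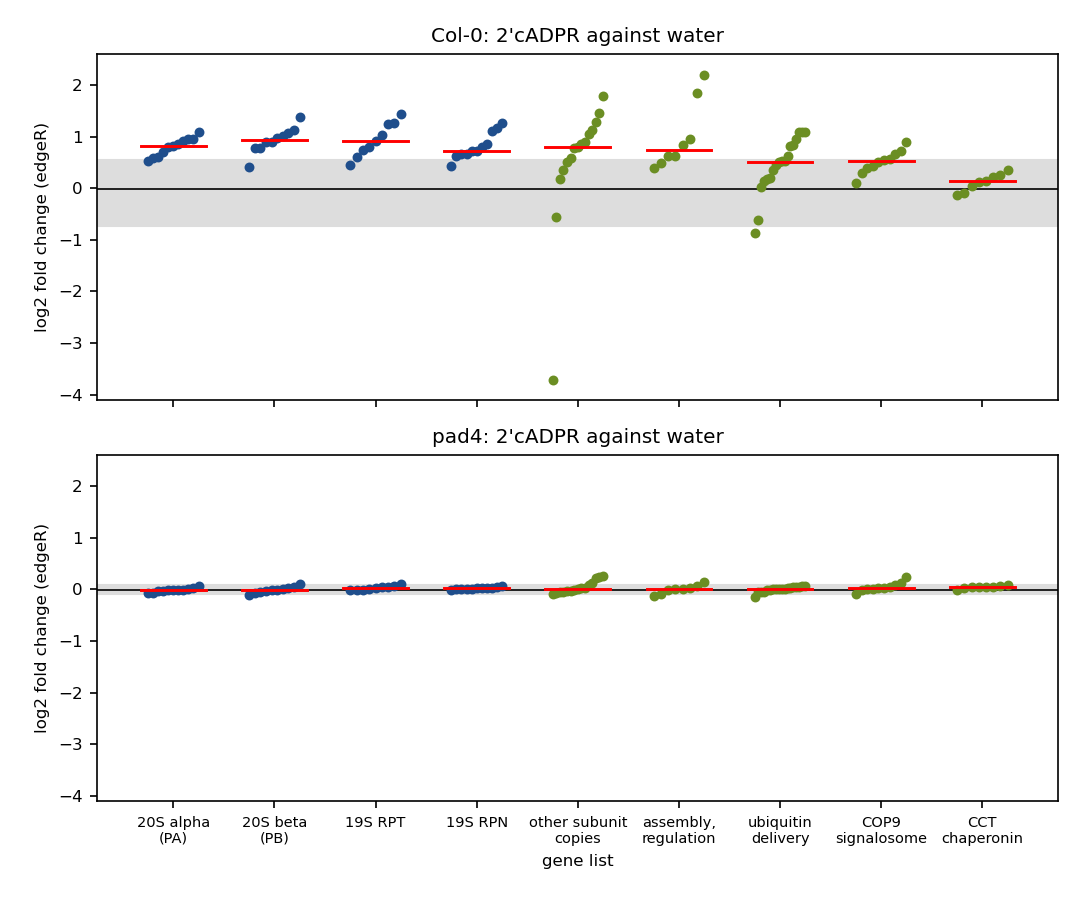
Log2 fold change (edgeR) after 2'cADPR for each gene of 9 lists in Col-0 (upper) and pad4 (lower); dots are genes, red bars list medians, and the grey band and black line the quartiles and median of all tested genes. In Col-0 the medians of the 4 classes of the 41 subunit genes lie at 0.73 to 0.94, and in pad4 they lie at -0.02 to 0.02.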

How the data were processed

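Per the labels' protocols, rosette leaf RNA was isolated with TRIzol, and a SMARTER mRNA-seq kit was used for the libraries. The deposited count table holds raw read counts per gene, which the authors made with fastp, HISAT and HTSeq on TAIR10, per the submitters' processing notes; their versions, settings and strandedness are not stated there. The deposited FPKM values are the same counts divided by gene length and library total. Samples were grouped by title and treatment label.

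Counts were fitted in R 4.3.3 with edgeR 4.0.16: filterByExpr with a minimum count of 10, TMM factors, 1 mean per group over 12 libraries and two-sided quasi-likelihood F-tests. P-values were adjusted by Benjamini-Hochberg over all 19652 tested genes, and genes were called under 0.05. CPM are counts per 1e6 of TMM-scaled totals. Standard errors (SE) were derived from the test, as the absolute log2 change divided by the square root of F, and are approximate. PAD4 was checked by an exact two-sided permutation test of log2(CPM + 0.5), 6 libraries against 6. Shares of copies came from FPKM.

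The members and lists were chosen with earlier results of these data known. Values per library were printed for the catalytic subunits, the 3 largest changes of each comparison with called members and the members nearest to 1.5-fold. From the other lists, up to 3 genes with the largest changes were named, together with NAC53 and NAC78. Any other gene or pair was named after its values were seen. Listed genes not in the tables were not analysed here, and the values of another listed gene are not reported here. Alternatives were RLE, upper-quartile or no scaling factors, other filters, DESeq2 1.42.0, limma-voom 3.58.1, only the groups compared, a replicate block and leaving out each library. Windows before gene starts came from the RefSeq TAIR10.1 genome; gene lengths implied by FPKM matched its exon lengths for 24224 of 24228 genes. No protein sequences were used here.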

Additional observations from a re-analysis of the deposited data

Results flagged for a closer look

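By the interaction term of edgeR's quasi-likelihood fit, the response to 2'cADPR differed between wild type and pad4 in 41 of the 41 subunit genes. Over all tested genes 57.6% were called in either direction. All 41 were called lower, against 28.2% of all tested genes. The median of the 41 was -0.86 log2 units (pad4 minus wild type). In all 41 the treated wild type libraries lay above the water libraries (36.0% of all tested genes), whereas in pad4 this held for 1 of 41 (5.58% of all tested genes).

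The largest differences were -1.39 in RPT5B, -1.38 in PBB2 and -1.25 in RPN11, and the smallest were -0.47 in RPT6A, -0.42 in PBB1 and -0.40 in RPN2A. Among other subunit genes the term was -1.77 in RPT6B, -1.37 in RPN3B and -1.29 in RPN8B. It was positive, a fall in wild type that pad4 lacked, in RPT1B (0.54) and RPN12B (3.99); the fitted value of RPN12B rests on 1 to 7 counts per treated wild type library and depends on the prior count. Of the regulators, NAC53 had -2.14, NAC78 -0.93 and PA200 -1.71.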

How the results depend on the processing

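The counts of called members stayed at 41 for the wild type response and for pad4 against wild type after 2'cADPR, and at 0 for the pad4 response, under every alternative run. For the interaction all alternatives gave 41 but upper-quartile factors, with 40. For pad4 against wild type after water, 34 were called, 25 with library totals or upper-quartile factors, 27 with only the groups compared, 29 with RLE factors or no filter, and 24 to 34 without 1 library. The median log2 change in wild type (0.85) was 0.90 with RLE factors and with DESeq2, 0.71 with upper-quartile factors, 0.82 with the filter of 5 CPM, and 0.83 to 0.87 without 1 library. The median interaction (-0.86) was -0.90 with RLE factors and with DESeq2, -0.71 with upper-quartile factors, -0.83 with the filter of 5 CPM, and -0.89 to -0.83 without 1 library. The median for pad4 against wild type after water (-0.26) was -0.21 with library totals and -0.19 with upper-quartile factors. After 2'cADPR (-1.11) it was -1.13 with RLE factors and with DESeq2, -1.04 with library totals, -0.89 with upper-quartile factors, -1.07 with the filter of 5 CPM, -1.09 with only the groups compared, and -1.14 to -1.09 without 1 library. Upper-quartile factors moved the median of all tested genes by -0.14 in wild type, 0.15 in the interaction and 0.22 between genotypes after 2'cADPR; relative to the median of all tested genes the members then stood at 0.87, -0.87 and -1.13. The number of copy pairs that moved by at least 5 points was 11 of 23, and 11 to 12 without 1 library. No called value changed its direction; the median of the pad4 response (0.01), where no member was called, lay between -0.02 and 0.02 without 1 library. The labels do not say whether replicate numbers pair the libraries. Correlations of same-numbered deviations from the group means were -0.171 to 0.085, which cannot settle it. With the replicate block 41, 0 and 41 members were called in the wild type response, the pad4 response and the interaction. Between the genotypes 33 were called after water and 41 after 2'cADPR with this block. Overlapping genes limit PAF2, PBD2, RPT1A, RPN5A, PBF1 and PBD1, whose exons share 11.1% to 65.1% of their bases with a neighbour. The cause of these shifts was not tested.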
